A study of Mus musculus with 12 samples.

Results

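Cardiomyocyte RNA of mice that had both 5/6 nephrectomy and JV101 was compared with that of mice that had neither, which asks what differs from control after surgery and treatment together. The 6 samples are 3 labelled 5/6 nephrectomy (NX) with JV101 and 3 labelled sham with saline, of 12 in the study, and they were chosen by their labels alone. The NX JV101 mice were wild-type C57BL6 animals that had 5/6 nephrectomy and an injection of JV101. The sham saline mice were wild-type C57BL6 animals that had a sham operation and an injection of saline. In each case hearts were taken 16 weeks after surgery and cardiomyocytes were isolated for polyA RNA-seq. Not given in the sources used here are age, sex, the time and dose of the injection, the number of animals per sample and the content of JV101. The series is titled as a study of gene therapy that recaps telomeres in a cardio-renal syndrome. The other groups, NX saline and sham JV101, with 3 samples each of the same strain, time and cells, are cited only beside the main values. Because surgery and JV101 both differ between the compared groups, the share of each cannot be told apart in this comparison.

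Removal of most of the kidney mass is a widely used rodent model of chronic kidney disease, in which the heart is known to enlarge and scar. Cardiomyocytes draw most of their energy from the oxidation of fatty acids in mitochondria. They also depend on chaperones, proteins that help others to fold, to build and keep the sarcomere, their contractile apparatus. Genes of both systems, with the cell types around the myocyte and the telomere cap, are described in turn.

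The 6 libraries held 27.0 to 33.8 M counts and 16989 to 18342 detected genes. Mitochondrially encoded protein genes took 52.9%, 41.1% and 38.3% of the counts in NX JV101 replicates 1 to 3, and 36.7%, 69.0% and 44.2% in sham saline. Sham saline replicate 2 thus stood apart, with 8.38 M counts left for nuclear genes against 14.4 to 20.7 M in the other 5 libraries. None of 4 library measures passed a 2-sided exact permutation test between the groups (smallest p = 0.4, adjusted p = 0.7, where 3 against 3 cannot go below 0.1). The 15 cardiomyocyte markers summed to 66707, 47173 and 61052 CPM (counts scaled to the TMM library size) in NX JV101 and to 77268, 63693 and 70723 CPM in sham saline. Markers of other cells were present in every library: the 17 fibroblast markers summed to 1609, 3636 and 1939 CPM in NX JV101 and 1087, 1601 and 1850 CPM in sham saline. NX JV101 replicate 2 was therefore the library richest in fibroblast RNA and poorest in cardiomyocyte RNA. In such bulk samples, fewer cells of a type and less RNA per cell cannot be told apart.

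No gene passed an adjusted p of 0.05 among 14412 tested (edgeR's quasi-likelihood test, smallest adjusted p = 0.780). At an unadjusted edgeR p under 0.05 there were 895 genes, or 6.21%, of which 398 (2.76%) were higher in NX JV101 and 497 (3.45%) lower. Regardless of p, 53.6% of all genes had a positive and 46.4% a negative fold change. In 2660 genes (18.5%) the 3 NX JV101 libraries lay wholly apart from the 3 sham saline libraries, higher in 1474 (10.2%) and lower in 1186 (8.23%). The median log2 fold change of all genes was 0.03. The standard error had a median of 0.188 over genes at 10 CPM or more, where 2 standard errors are a 1.30-fold difference. DESeq2 called 8 genes, all lower in NX JV101: *Zkscan3*, *Gm32113* and *Gm26944* (DESeq2 adjusted p = 0.00370 each), *Niban3* (0.0326), *Unc45b* (0.0369), and *Msln*, *Gm32261* and *Lrp2* (0.0408 each). Below, values are the CPM of each library in replicate order, followed by the log2 fold change of NX JV101 over sham saline with its standard error. Each gene named below has an edgeR adjusted p of 0.780 or more, so that higher and lower describe these 6 libraries.

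**Figure D1:**
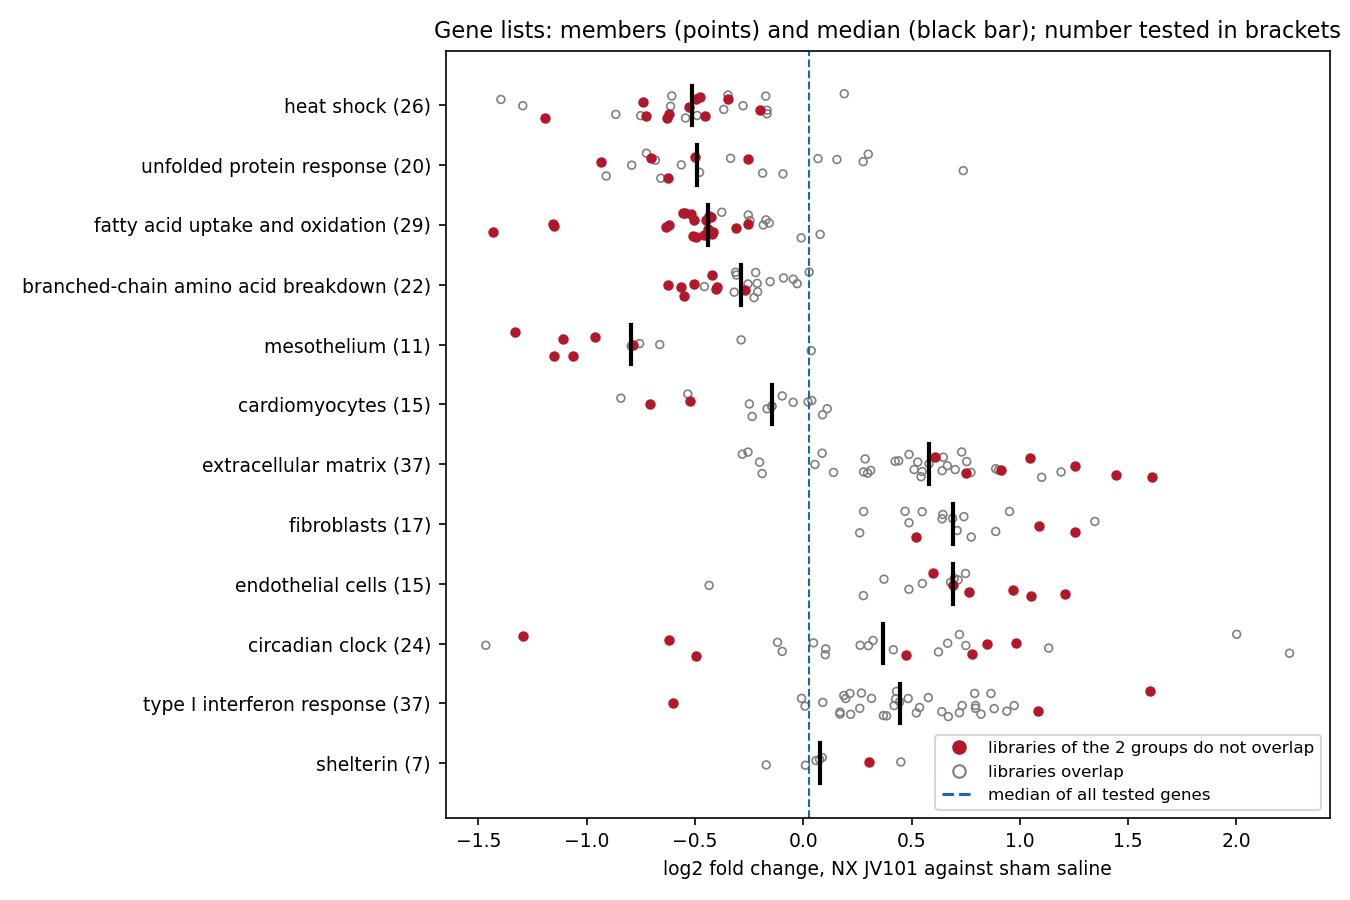
Log2 fold change of NX JV101 over sham saline (x axis) for the tested members of 12 gene lists (y axis); each point is a gene, filled where the 3 libraries of a group lie apart from the 3 of the other, and the black bar is the list's median. Heat shock, unfolded protein response, fatty acid, branched-chain amino acid and mesothelial lists have medians from −0.79 to −0.29 (the amino acid list 0.00 on FPKM), and matrix, fibroblast and endothelial lists have medians from 0.58 to 0.69, against 0.03 for all genes (dashed line).

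Genes of the heat shock response were lower in NX JV101, with 25 of 26 negative and a median of −0.51. Of the 26, 13 had an unadjusted p under 0.05, all lower (3.45% of all genes), and 11 had groups that did not overlap, all lower (8.23% of all genes). *Hspa4l*, which encodes a nucleotide exchange factor of the Hsp110 family that resets Hsp70, had 39.4, 29.6 and 36.5 CPM in NX JV101 and 59.9, 56.2 and 58.3 CPM in sham saline (−0.72, SE 0.16; edgeR adjusted p = 0.780). Every NX JV101 library lay well below every sham saline library. *Stip1*, the co-chaperone that links Hsp70 to Hsp90, had 48.7, 80.5 and 60.2 CPM in NX JV101 and 86.8, 118 and 112 CPM in sham saline (−0.74, SE 0.21), again without overlap. *Hspb1*, a small heat shock protein, had 115, 145 and 142 CPM in NX JV101 and 174, 449 and 295 CPM in sham saline (−1.19, SE 0.33). The sham saline libraries spread widely here, and the closest libraries of the groups were at 145 and 174 CPM. *Hsph1*, also of the Hsp110 family, overlapped, at 25.6, 55.1 and 37.5 CPM in NX JV101 and 51.7, 137 and 102 CPM in sham saline (−1.30, SE 0.37). 

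Further heat shock genes, chosen after their values were seen, were of the same direction. *Hspd1*, the mitochondrial chaperonin Hsp60, had 188, 154 and 190 CPM in NX JV101 and 261, 274 and 289 CPM in sham saline (−0.63, SE 0.18). *Hsp90ab1*, the constitutive cytosolic Hsp90, had 743, 869 and 812 CPM in NX JV101 and 1021, 1296 and 1177 CPM in sham saline (−0.53, SE 0.16). *Bag3*, a co-chaperone that works with Hsp70 at the sarcomere's Z-disc, had 142, 176 and 132 CPM in NX JV101 and 219, 219 and 254 CPM in sham saline (−0.62, SE 0.20). None of these 3 overlapped between the groups (8.23% of all genes lay apart and lower). The Hsp90 co-chaperone *Chordc1* (−0.87, SE 0.27) did overlap, at 15.8, 28.3 and 22.9 CPM in NX JV101 and 28.3, 53.5 and 40.7 CPM in sham saline.

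Heat shock genes are known targets of the factor HSF1, which binds inverted repeats of GAA. The element was searched in the RefSeq promoter windows of GRCm38.p6, from 250 bases before to 50 after each gene's start, as GAANNTTCNNGAA or TTCNNGAANNTTC; each is the reverse complement of the other, so both strands were covered. It was present in 0.603% of all 32851 windows, and in 5 of the 28 windows of the 21 list members that have one, which belong to *Hspd1*, its head-to-head neighbour *Hspe1*, *Hsph1* and *Chordc1*. The sequences are shown because these genes are among those lower in NX JV101. The windows of *Hspa4l*, *Stip1*, *Hspb1* and *Bag3*, which were lower too, held no match, nor did those of *Hspa1a* and *Hspa1b*. They are given 5′ to 3′ on the gene's strand, with the element in capitals; where matches overlap, the capitals span all of them. The *Hspd1* stretch is chr1:55087933-55088182, minus strand, with the element 144 bases before the start of that transcript. The *Chordc1* stretch is chr9:18292017-18292285, plus strand, and its 3 overlapping matches begin 4 bases before the start. The *Hsph1* element is chr5:149636288-149636300, minus strand, beginning at base 37 of the transcript, and only the element is printed. A match describes these letters and does not show that a factor binds there.
Hspd1: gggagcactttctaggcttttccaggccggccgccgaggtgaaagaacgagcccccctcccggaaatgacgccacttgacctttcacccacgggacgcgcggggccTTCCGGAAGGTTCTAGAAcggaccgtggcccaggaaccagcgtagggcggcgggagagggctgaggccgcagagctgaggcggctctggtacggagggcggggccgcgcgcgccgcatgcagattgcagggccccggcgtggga
Chordc1: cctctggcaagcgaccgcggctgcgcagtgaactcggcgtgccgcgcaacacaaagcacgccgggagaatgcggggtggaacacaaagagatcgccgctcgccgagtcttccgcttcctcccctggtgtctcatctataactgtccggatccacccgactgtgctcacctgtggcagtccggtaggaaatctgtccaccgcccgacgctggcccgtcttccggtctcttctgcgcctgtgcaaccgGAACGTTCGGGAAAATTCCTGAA
Hsph1: TTCTGGAAAGTTC

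Inducible Hsp70 was negative too, but with much wider errors than the heat shock genes named above. *Hspa1a* had 54.2, 84.1 and 57.7 CPM in NX JV101 and 10.2, 98.5 and 112 CPM in sham saline (−0.17, SE 0.82), and *Hspa1b* had 44.8, 82.5 and 51.0 CPM in NX JV101 and 4.22, 130 and 126 CPM in sham saline (−0.54, SE 1.04). Sham saline replicate 1 was the lowest of the 6 for each gene and replicates 2 and 3 were the highest, with NX JV101 between them. The NX saline libraries had 4.28, 14.9 and 27.9 CPM of *Hspa1a* and the sham JV101 libraries 7.96, 30.6 and 7.07 CPM, all below the NX JV101 libraries. These genes are near-identical copies, so the split of reads between them is uncertain.

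**Figure D2:**
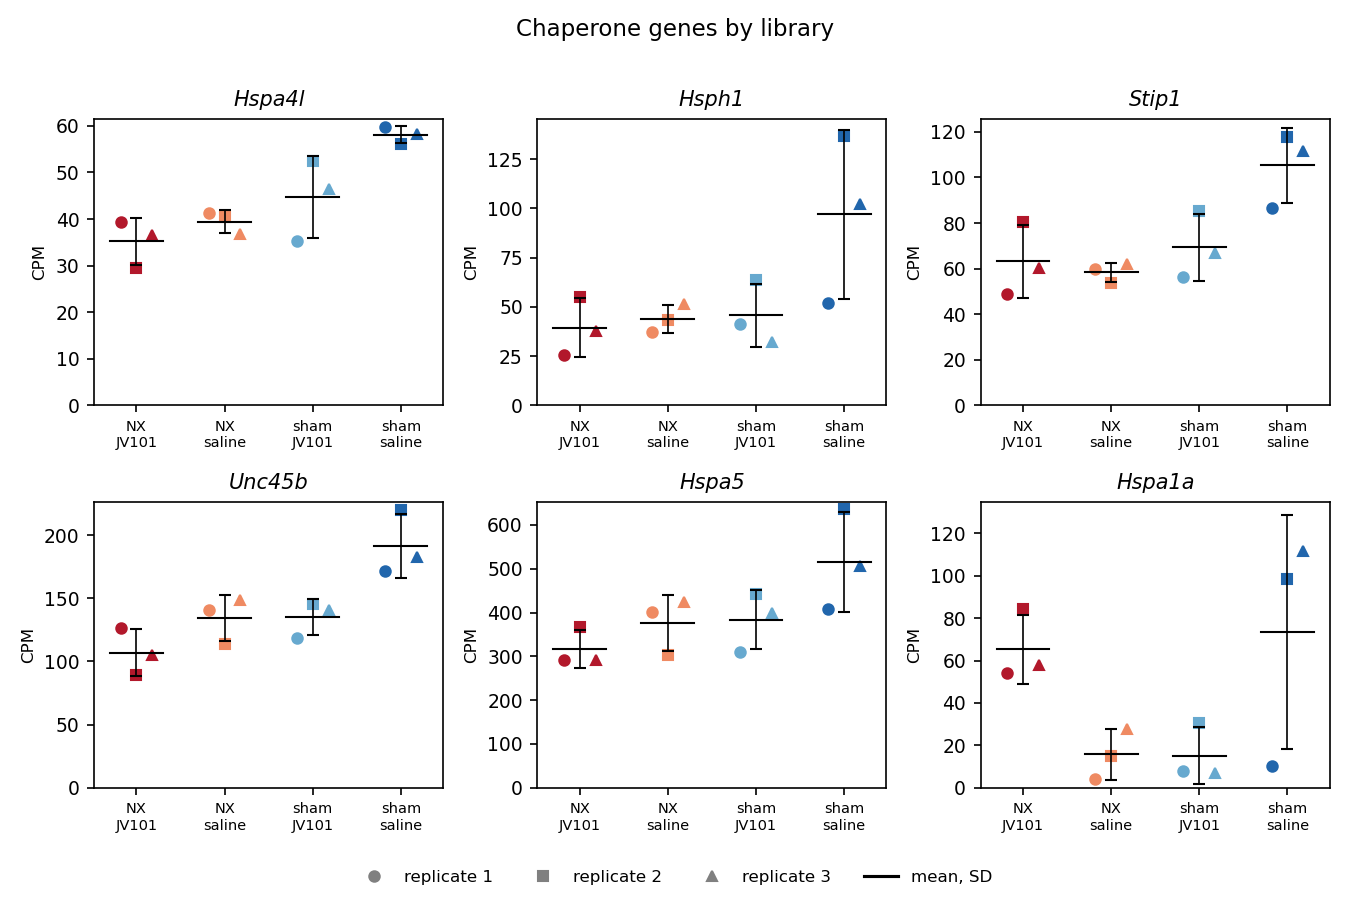
CPM (y axis, from 0) of 6 chaperone genes in each library of the 4 groups (x axis); marker shapes are replicates 1 to 3 and the bar shows mean and SD. *Hspa4l*, *Stip1*, *Unc45b* and *Hspa5* lie lower in all 3 NX JV101 libraries than in all 3 sham saline libraries, *Hsph1* overlaps, and *Hspa1a* in NX JV101 (54.2 to 84.1 CPM) lies within the spread of sham saline (10.2 to 112 CPM).

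Across the 4 groups the heat shock list stood highest in sham saline. By group mean, 23 of the 26 genes were highest in sham saline of the 4 groups (25.9% of all genes) and 19 were lowest in NX JV101 (27.3% of all genes). NX JV101 had a list median of −0.12 against NX saline and −0.21 against sham JV101. Against sham saline it was −0.45 for NX saline and −0.39 for sham JV101; these comparisons share libraries and are not independent of each other. Leaving out any 1 library gave medians from −0.66 to −0.42. In NX JV101 the list's score (mean log2 CPM relative to the 12-library mean) was −0.29, 0.11 and −0.07, against −0.08, 0.65 and 0.60 in sham saline, so sham saline replicate 1 fell among the NX JV101 libraries. On the deposited FPKM, where all genes shifted to medians of 0.18 and 0.29 for pseudocounts of 1 and 0.1, the list's median was −0.20 with either. There 8 of the 26 were positive, against 1 in the main fit. An unadjusted p under 0.05 (limma) was reached by 3, all lower, in place of 13. Of 14412 genes tested, 90 and 87 were lower at that p.

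*Unc45b*, the chaperone that folds the myosin head, had 126, 89.1 and 105 CPM in NX JV101 and 171, 220 and 182 CPM in sham saline (−0.84, SE 0.17). The groups stood apart by a wide margin, and the value stayed between −0.98 and −0.72 without any 1 library. *Unc45b* overlaps antisense genes in the reference annotation and no source used here gives the strand setting of the counts, so reads of the pair cannot be told apart.

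Chaperones of the endoplasmic reticulum were lower as well. Of 20 genes of the unfolded protein response, 15 were negative with a median of −0.49, 6 had an unadjusted p under 0.05 (3.45% of all genes) and 5 did not overlap (8.23% of all genes), all lower. *Hspa5*, the Hsp70 of the endoplasmic reticulum (BiP), had 291, 367 and 292 CPM in NX JV101 and 408, 635 and 505 CPM in sham saline (−0.70, SE 0.21). *Hsp90b1*, its Hsp90, had 159, 214 and 172 CPM in NX JV101 and 238, 349 and 254 CPM in sham saline (−0.62, SE 0.19). *Hyou1*, another Hsp70 relative there, had 23.9, 34.1 and 19.8 CPM in NX JV101 and 40.8, 63.2 and 44.7 CPM in sham saline (−0.93, SE 0.29). *Calr*, the calcium-binding lectin chaperone calreticulin, had 120, 184 and 130 CPM in NX JV101 and 189, 234 and 191 CPM in sham saline (−0.50, SE 0.20), where 184 and 189 CPM are nearly level. All 4 were apart in the same direction, though within each group replicate 2 was the highest. The list's median ran from −0.61 without NX JV101 replicate 2, where 10 genes had an unadjusted p under 0.05, to −0.26 without sham saline replicate 2, where 3 had. Over all genes, 352 of 14812 and 272 of 14901 were lower at that p in these fits. On the deposited FPKM the list's median was −0.20 and −0.21, with 8 of 20 positive and 0 genes at an unadjusted p under 0.05. With the clock phase of each library as a covariate, a fit added after the data were seen, the median was −0.27. In that fit 1 gene of the list was lower at an unadjusted p under 0.05, as were 732 of 14412 genes tested.

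Genes of fatty acid uptake and oxidation were lower in NX JV101 nearly throughout. Of 29 genes 28 were negative, with a median of −0.44, and 20 had groups that did not overlap, all lower (8.23% of all genes). An unadjusted p under 0.05 was reached by 11, all lower (3.45% of all genes). By group mean, 26 of the 29 were lowest in NX JV101 and 25 were highest in sham saline, against 27.3% and 25.9% of all genes. *Cpt2*, which completes the carnitine-dependent entry of fatty acids into mitochondria, had 120, 82.3 and 109 CPM in NX JV101 and 167, 162 and 154 CPM in sham saline (−0.63, SE 0.19). Sham saline was tight and each NX JV101 library lay below it. *Acaa2*, the thiolase of the last step of β-oxidation, had 531, 321 and 440 CPM in NX JV101 and 616, 603 and 632 CPM in sham saline (−0.52, SE 0.21). *Ppargc1a*, the coactivator PGC-1α that drives mitochondrial gene expression, had 65.4, 43.4 and 64.5 CPM in NX JV101 and 72.4, 199 and 115 CPM in sham saline (−1.16, SE 0.41; −0.69 to −1.44 without any 1 library). *Acot1*, a cytosolic acyl-CoA thioesterase, had 4.90, 3.96 and 5.83 CPM in NX JV101 and 6.04, 15.2 and 11.6 CPM in sham saline (−1.15, SE 0.34); here the edges of the groups nearly touched.

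The core enzymes of the β-oxidation spiral, chosen after their values were seen, differed by similar amounts. The subunits of the trifunctional protein, *Hadha* and *Hadhb*, had fold changes of −0.55 (SE 0.23) and −0.50 (SE 0.22), the acyl-CoA dehydrogenases *Acadvl* and *Acadm* −0.51 (SE 0.23) and −0.42 (SE 0.21), and *Etfdh*, which hands their electrons to ubiquinone, −0.50 (SE 0.21). *Hadha*, for example, had 879, 541 and 793 CPM in NX JV101 and 1097, 1114 and 1022 CPM in sham saline. None of these 5 overlapped (8.23% of all genes lay apart and lower). The 3 list members named next were likewise chosen after their values were seen. The fatty acid transporter *Cd36* averaged 1186 ± 94.0 CPM in NX JV101 and 1194 ± 160 CPM in sham saline (SD, n = 3 each; −0.01, SE 0.18). *Cpt1a*, the liver form of the entry enzyme, was the only positive gene of the list, at 34.7, 29.4 and 34.1 CPM in NX JV101 and 25.5, 37.7 and 29.9 CPM in sham saline (0.08, SE 0.20). *Cpt1b*, the muscle form, was counted at only 0.165 to 0.399 CPM in NX JV101 and 0.693 to 0.947 CPM in sham saline (−1.43, SE 0.68); it overlaps another gene in the reference annotation, so its count is uncertain.

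**Figure D3:**
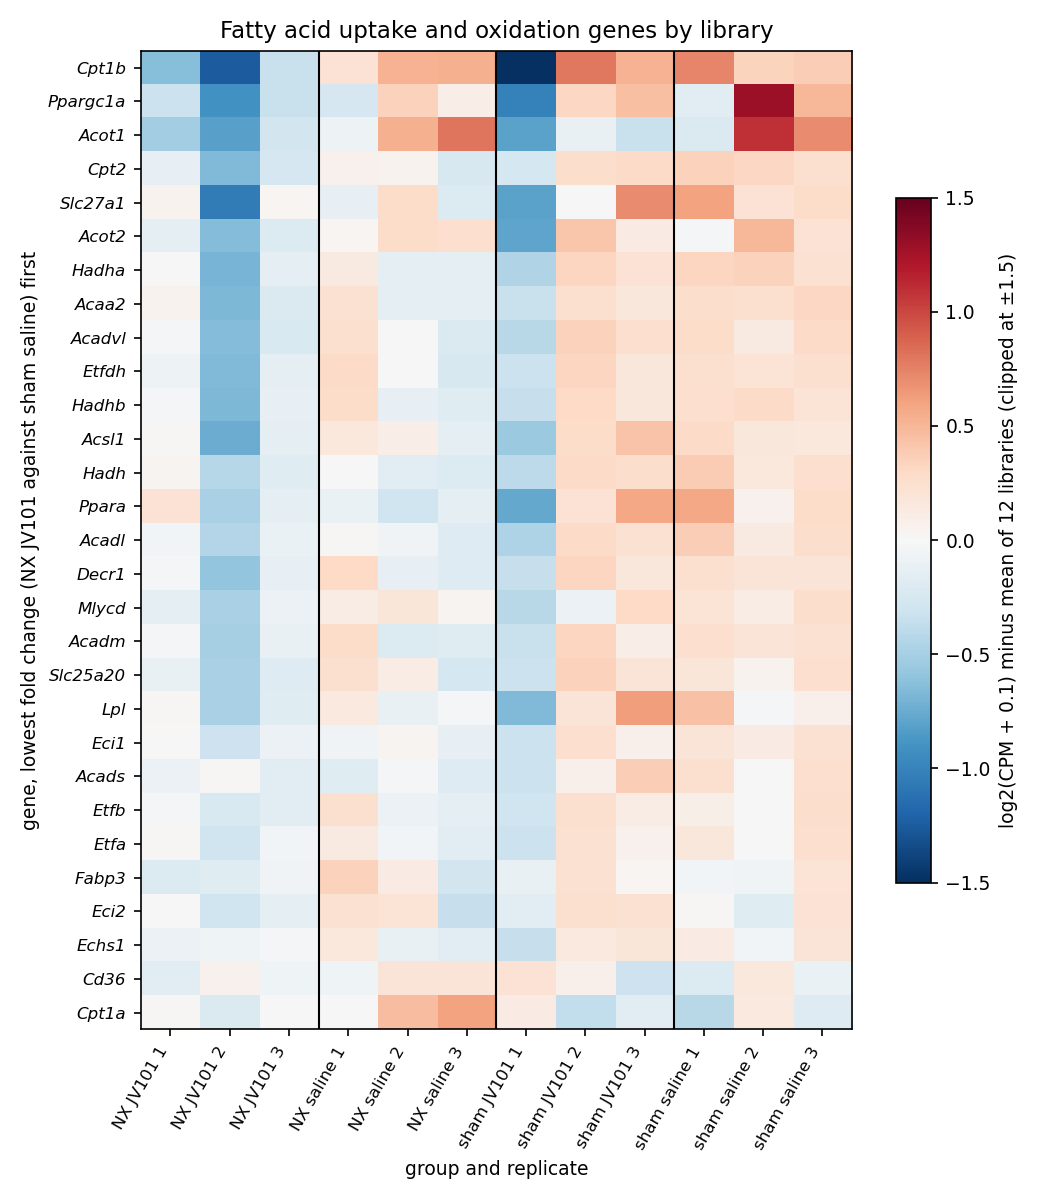
Log2(CPM + 0.1) of the 29 genes of fatty acid uptake and oxidation, each relative to its mean over the 12 libraries (colour, clipped at ±1.5), by library (columns) and gene (rows, lowest fold change of NX JV101 over sham saline at the top). NX JV101 replicate 2 and sham JV101 replicate 1 are mostly below the mean (blue; list scores −0.49 and −0.42) and the sham saline columns are mostly above it (red; 0.19 to 0.23).

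NX JV101 replicate 2 had the lowest level of this list and was also the library with the most fibroblast RNA. Scores of the list were −0.07, −0.49 and −0.14 in NX JV101 and 0.19, 0.20 and 0.23 in sham saline. It was −0.42 in sham JV101 replicate 1, whose fibroblast markers summed to 3441 CPM. Without NX JV101 replicate 2 the median was −0.31 and 2 of the 29 genes had an unadjusted p under 0.05, in place of 11. Over all genes, 352 of 14812 were lower at that p in this fit. With the fibroblast score as a covariate, a fit added after the data were seen, the list's median was −0.26 and 29 of 29 were negative. An unadjusted p under 0.05 was reached by 7 of them (676 of 14412 genes tested were lower). On the deposited FPKM the median was −0.15 with either pseudocount and 8 genes were positive, while all genes had medians of 0.18 and 0.29. There 1 gene of the list was lower at an unadjusted p under 0.05 (limma), with 90 and 87 of 14412 genes tested. NX JV101 also had medians of −0.23 against NX saline and −0.26 against sham JV101. Against sham saline, NX saline had a median of −0.20 and sham JV101 of −0.16.

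Neighbouring fuel genes were lower in part. Of 14 tested genes of the PPAR fasting response, 10 were negative with a median of −0.51, 4 of them with an unadjusted p under 0.05 (3.45% of all genes). Leaving out replicate 2 of NX JV101 gave −0.28 as the median, and leaving out replicate 2 of sham saline gave −0.29. On FPKM it was −0.21 and −0.22, with 6 of 14 positive. *Plin5*, which coats lipid droplets at mitochondria, had 52.5, 53.2 and 55.6 CPM in NX JV101 and 68.8, 83.2 and 89.3 CPM in sham saline (−0.58, SE 0.22), a narrow band against a wider one. *Lpin1*, a phosphatidate phosphatase, had 108, 93.4 and 84.8 CPM in NX JV101 and 181, 152 and 140 CPM in sham saline (−0.72, SE 0.25). *Pdk4*, which restrains pyruvate oxidation, overlapped, at 314, 166 and 292 CPM in NX JV101 and 299, 1025 and 748 CPM in sham saline (−1.42, SE 0.65). *Ucp3*, a mitochondrial carrier induced by fasting, overlapped too (−0.56, SE 0.54). Among 22 genes of branched-chain amino acid breakdown 21 were negative with a median of −0.29 (−0.18 in the absence of NX JV101 replicate 2), and 0.00 on the deposited FPKM with a pseudocount of 0.1. *Mccc2*, a subunit of an enzyme of leucine breakdown, had 29.1, 24.4 and 29.6 CPM in NX JV101 and 45.3, 38.7 and 43.9 CPM in sham saline (−0.62, SE 0.20). *Bcat2*, the mitochondrial transaminase of the first step, had 55.1, 60.6 and 53.3 CPM in NX JV101 and 82.5, 66.3 and 77.7 CPM in sham saline (−0.42, SE 0.17). Of 24 genes of glucose uptake and glycolysis 19 were negative with a median of −0.19, and of 28 nuclear genes of the respiratory chain 20 were negative with a median of −0.09. On FPKM these medians turned to 0.10 and 0.22 with either pseudocount.

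Genes of the contractile cell itself gave a mixed picture. *Xirp1*, an actin-binding protein of the intercalated disc, had 153, 138 and 133 CPM in NX JV101 and 319, 257 and 341 CPM in sham saline (−1.11, SE 0.28). It stayed between −1.22 and −1.03 without any 1 library. Its relative *Xirp2* had 263, 254 and 289 CPM in NX JV101 and 415, 439 and 327 CPM in sham saline (−0.55, SE 0.24). *Acta1*, a skeletal actin also expressed in the fetal heart, was higher, at 195, 242 and 238 CPM in NX JV101 and 130, 75.0 and 123 CPM in sham saline (1.04, SE 0.41). The natriuretic peptides and myosin heavy chains, which are standard readouts of hypertrophy, overlapped. *Nppb* had 83.4, 179 and 132 CPM in NX JV101 and 100.9, 99.9 and 163 CPM in sham saline (0.12, SE 0.51). *Nppa* had 632, 946 and 627 CPM in NX JV101 and 799, 24.7 and 1332 CPM in sham saline (0.03, SE 1.05), where sham saline replicate 2 was low in atrial markers in general (list score −1.54). *Myh7* was at −0.11 (SE 0.44) and *Myh6* at −0.53 (SE 0.39). Over the 19 genes of the fetal program and hypertrophy, 8 were positive and 11 negative, with a median of −0.09 that was 0.19 and 0.22 on FPKM.

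Membrane and calcium genes were lower in the main. Of 23 potassium and sodium channel genes 19 were negative with a median of −0.33. On FPKM that median was −0.037 and −0.030, with 10 and 11 positive. Of 25 calcium cycling genes 16 were negative with a median of −0.23 (0.048 and 0.056 on FPKM). An unadjusted p under 0.05 was reached by 2 channel and 2 calcium genes, all lower (3.45% of all genes). Groups did not overlap in 3 channel and 4 calcium genes, all lower (8.23% of all genes). The calcium median was −0.13 without sham saline replicate 3, −0.35 without sham saline replicate 2 and −0.025 with the fibroblast score as a covariate. *Ryr2*, the calcium release channel of the sarcoplasmic reticulum, had 881, 489 and 826 CPM in NX JV101 and 1344, 1260 and 984 CPM in sham saline (−0.71, SE 0.32). *Cacna2d1*, an accessory subunit of the L-type calcium channel, was at −0.69 (SE 0.30), and *Kcnv2*, a modifier subunit of potassium channels, at −1.05 (SE 0.35). *Scn4a*, a sodium channel of skeletal muscle, was at −0.89 (SE 0.40). All 4 had groups that did not overlap, with NX JV101 replicate 2 the lowest library in each. The channel list's median ran from −0.51 to −0.06 without any 1 library, and was 0.04 with the fibroblast score as a covariate.

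Markers of the mesothelium, the cell sheet that covers the heart and lines the pericardium, were lower in NX JV101. Of 11 markers 10 were negative, with a median of −0.79, 6 had an unadjusted p under 0.05 (3.45% of all genes) and 6 had groups that did not overlap (8.23% of all genes), all lower. *Msln*, the surface protein mesothelin, had 7.19, 6.74 and 6.51 CPM in NX JV101 and 14.6, 11.6 and 19.1 CPM in sham saline (−1.15, SE 0.25; edgeR adjusted p = 0.780). *Muc16*, a membrane mucin, had 4.02, 2.498 and 2.67 CPM in NX JV101 and 5.71, 8.26 and 9.13 CPM in sham saline (−1.33, SE 0.32). *Upk3b* had 14.2, 13.7 and 11.7 CPM in NX JV101 and 22.9, 26.4 and 27.8 CPM in sham saline (−0.96, SE 0.25). *Lrrn4* had 3.78, 3.09 and 4.81 CPM in NX JV101 and 8.03, 7.16 and 9.998 CPM in sham saline (−1.11, SE 0.31). For all 4 every NX JV101 library lay below every sham saline library, and for *Msln* the NX JV101 libraries formed a narrow band. *Lrp2*, the endocytic receptor megalin, which is not among the markers, had 0.920, 1.34 and 0.823 CPM in NX JV101 and 2.71, 2.60 and 3.13 CPM in sham saline (−1.45, SE 0.33).

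Across the 4 groups the mesothelial list stood lowest in NX JV101: by group mean 10 of 11 markers were lowest in NX JV101 (27.3% of all genes) and 0 were highest in sham saline (25.9% of all genes). NX JV101 had a list median of −1.18 against NX saline and −0.30 against sham JV101. Against sham saline, NX saline had a median of 0.30 and sham JV101 of −0.57. The summed markers came to 51.2, 66.1 and 48.3 CPM in NX JV101, 112, 77.7 and 151 CPM in NX saline, 71.0, 75.3 and 52.7 CPM in sham JV101, and 85.0, 87.5 and 109 CPM in sham saline. Without any 1 library the main median stayed between −0.99 and −0.58, and with the fibroblast score as a covariate it was −0.93. On the deposited FPKM it was −0.32 with a pseudocount of 1 and −0.47 with 0.1.

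**Figure D4:**
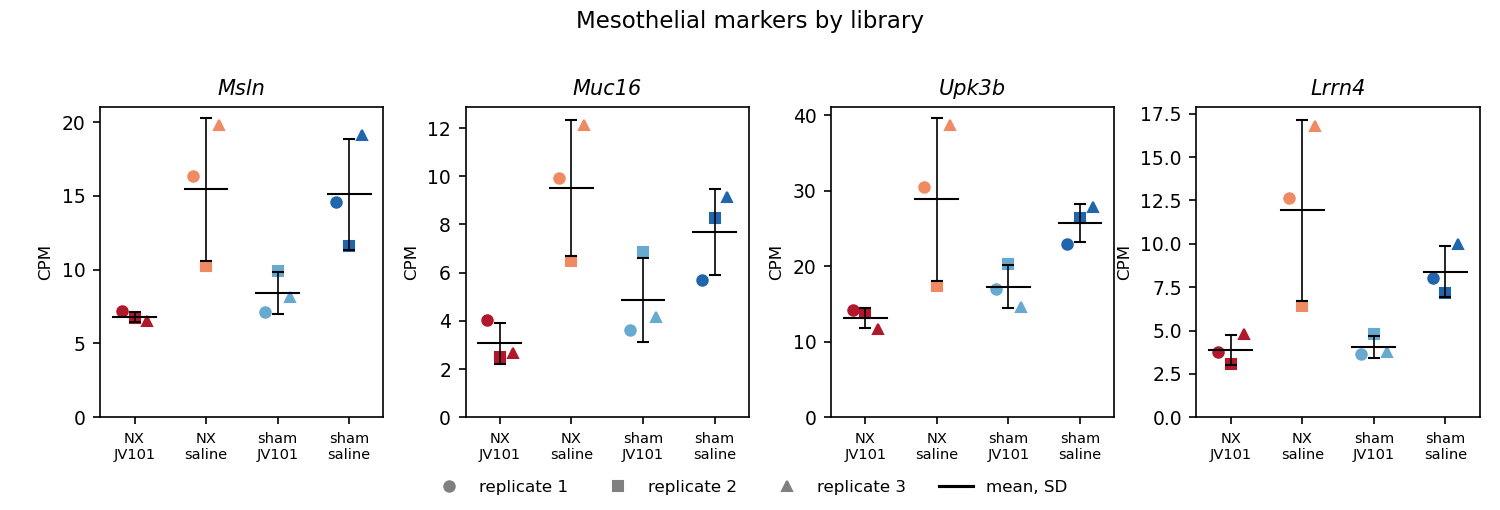
CPM (y axis, from 0) of 4 mesothelial markers in each library of the 4 groups (x axis); marker shapes are replicates 1 to 3 and the bar shows mean and SD. The NX JV101 libraries (*Msln* 6.51 to 7.19 CPM) lie below the sham saline libraries (11.6 to 19.1 CPM) in every panel, and sham JV101 lies low as well (7.14 to 9.94 CPM for *Msln*).

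Matrix genes and markers of the stromal cells were higher in NX JV101, and the matrix and fibroblast lists mostly through replicate 2. Of 37 matrix genes 33 were positive with a median of 0.58, 4 had an unadjusted p under 0.05 (2.76% of all genes) and 7 did not overlap (10.2% of all genes), all higher. Without NX JV101 replicate 2 the median was 0.08, 24 were positive and 1 was higher at an unadjusted p under 0.05 (237 of 14812 genes tested). *Col8a1*, a network-forming collagen of vessels, had 15.3, 23.9 and 19.4 CPM in NX JV101 and 6.63, 5.14 and 9.69 CPM in sham saline (1.44, SE 0.50; 1.27 to 1.73 without any 1 library). *Comp*, a collagen-binding matrix protein, had 2.04, 4.88 and 3.86 CPM in NX JV101 and 1.28, 1.10 and 1.15 CPM in sham saline (1.61, SE 0.58). *Postn*, periostin of activated fibroblasts, had 17.5, 45.3 and 34.9 CPM in NX JV101 and 8.83, 14.8 and 17.5 CPM in sham saline (1.25, SE 0.57), with the lowest NX JV101 library level with the highest sham saline library. The main fibrillar collagens overlapped: *Col1a1* was at 0.55 (SE 0.57; 0.03 to 0.85 without any 1 library) and *Col3a1* at 0.28 (SE 0.52; −0.32 to 0.60).

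All 17 fibroblast markers were positive, with a median of 0.69, and 14 of 15 endothelial markers were, also with a median of 0.69. Of 13 markers of pericytes and smooth muscle 11 were positive, with a median of 0.77. Few reached an unadjusted p under 0.05: 1 fibroblast, 0 endothelial and 0 pericyte or smooth muscle markers were higher (2.76% of all genes). Groups did not overlap in 3, 6 and 3 markers of these lists, all higher (10.2% of all genes). Without NX JV101 replicate 2 the 3 medians were 0.20, 0.34 and 0.53. *Myh11*, the smooth muscle myosin, did not depend on that library, at 29.4, 29.7 and 30.4 CPM in NX JV101 and 15.8, 14.1 and 15.9 CPM in sham saline (0.96, SE 0.44). *Emcn*, endomucin of capillary and venous endothelium, had 32.2, 68.2 and 38.4 CPM in NX JV101 and 23.8, 17.4 and 18.7 CPM in sham saline (1.21, SE 0.56). *Ephx1*, the microsomal epoxide hydrolase, was among the 12 genes with the smallest p of those higher, at 49.9, 43.7 and 47.0 CPM in NX JV101 and 19.96, 19.3 and 21.7 CPM in sham saline (1.20, SE 0.35). It was also even across replicates. With the fibroblast score as a covariate the matrix, fibroblast and endothelial medians were −0.08, −0.07 and −0.05. That score is the mean of the fibroblast markers themselves, so the fall of their median was built into the fit. The matrix list shares *Col1a1*, *Col1a2*, *Col3a1*, *Dcn*, *Lum* and *Postn* with those markers, so its fall was built in partly. The part of stromal RNA in the other results of these libraries was not tested beyond the fits given.

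Clock genes split the NX JV101 libraries. The molecular clock is a daily feedback loop in which *Arntl* (BMAL1) and the output factor *Dbp* peak at opposite times of day. *Dbp* had 79.1, 6.999 and 60.7 CPM in NX JV101 and 8.26, 9.06 and 13.6 CPM in sham saline (2.25, SE 0.89). *Arntl* had 0.920, 10.2 and 0.972 CPM in NX JV101 and 10.1, 11.1 and 12.6 CPM in sham saline (−1.47, SE 0.98). The log2 ratio of *Dbp* to *Arntl* was 5.81, −0.52 and 5.38 in NX JV101 and −0.28, −0.28 and 0.10 in sham saline. Replicates 1 and 3 of NX JV101 thus stood at another phase than replicate 2 and all of sham saline, and no source used here gives the times of collection. *Per3*, a repressor of the loop, followed *Dbp*, at 30.01, 5.51 and 24.7 CPM in NX JV101 and 11.7, 8.72 and 6.93 CPM in sham saline (1.13, SE 0.55).

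A further 3 clock-linked genes lay apart between the groups, with NX JV101 replicate 2 the nearest to sham saline. *Bhlhe40*, a repressor of the loop, had the smallest p of the genes that were higher, at 59.98, 47.4 and 54.8 CPM in NX JV101 and 32.5, 27.9 and 29.7 CPM in sham saline (0.85, SE 0.18). *Rbm3*, a cold-inducible RNA-binding protein, had 39.0, 31.4 and 44.9 CPM in NX JV101 and 21.5, 18.2 and 27.3 CPM in sham saline (0.78, SE 0.18). *Nfil3*, a repressor that opposes *Dbp* at its sites, had 6.23, 18.3 and 10.5 CPM in NX JV101 and 25.1, 26.2 and 34.7 CPM in sham saline (−1.29, SE 0.40). All 3 had groups that did not overlap, as had 10.2% of all genes in the higher and 8.23% in the lower direction. *Bhlhe40* and *Rbm3* each overlap a noncoding gene in the reference annotation, from which their reads may not be separable. *Nr1d1* and *Per2*, other members of the loop, were at 0.10 (SE 0.32) and 0.30 (SE 0.48) with overlapping groups. Of the 24 clock genes 5 had an unadjusted p under 0.05 and were higher (2.76% of all genes), and 2 were lower (3.45% of all genes).

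**Figure D5:**
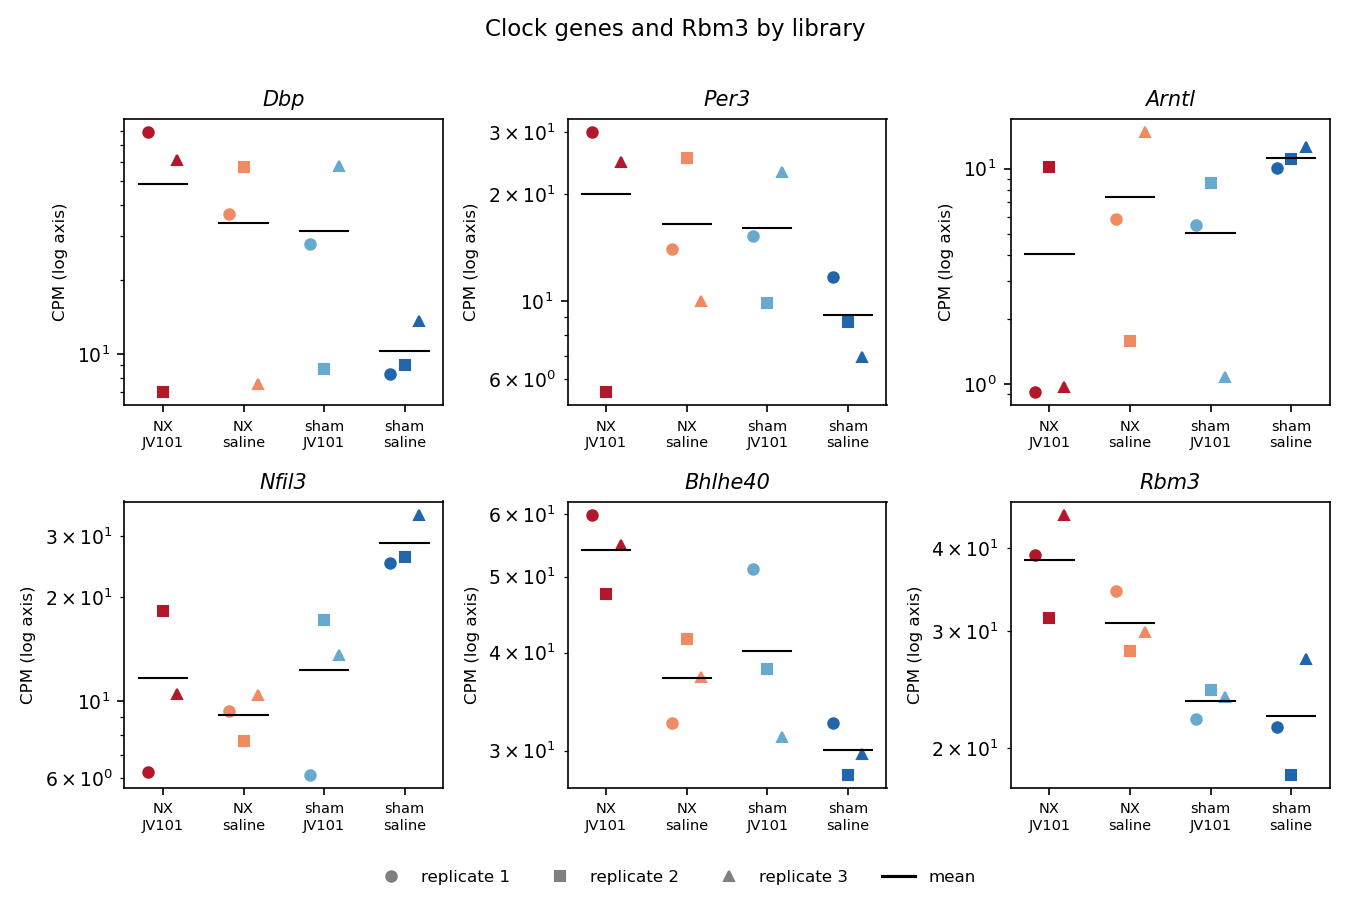
CPM (y axis, logarithmic) of 5 clock genes and *Rbm3* in each library of the 4 groups (x axis); marker shapes are replicates 1 to 3 and the bar is the mean. *Dbp* in NX JV101 replicates 1 and 3 (79.1 and 60.7 CPM) lies far above replicate 2 (6.999 CPM) and sham saline (8.26 to 13.6 CPM), and *Arntl* shows the reverse, while *Bhlhe40* and *Rbm3* are higher in all 3 NX JV101 libraries.

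The clock phase of the libraries moved with the other lists to different degrees. With the log2 ratio of *Dbp* to *Arntl* as a covariate, added after the data were seen, the heat shock median was −0.40 with 9 genes at an unadjusted p under 0.05, and the fatty acid median was −0.60 with 15. All of these were lower, as were 732 of 14412 genes tested. The mesothelial median was −0.56 in that fit, and the matrix, fibroblast and endothelial medians were 1.01, 1.12 and 1.23. The clock list itself had a median of −0.06, against 0.37 without the covariate. *Dbp* and *Arntl* are members of the clock list, so that fall was partly built into the fit. The number of genes at an unadjusted p under 0.05 was 1881 in that fit, and 0 passed the adjusted threshold.

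Among immune and blood transcripts, those of lymphocytes were sparse. Of 11 lymphocyte genes 10 were negative and 7 had an unadjusted p under 0.05, all lower (3.45% of all genes). Without sham saline replicate 2 there were 3, all lower (272 of 14901 genes tested). The 11 genes summed to only 3.0, 3.8 and 1.7 CPM in NX JV101 and 5.0, 20.6 and 6.8 CPM in sham saline. *Spib*, a B cell and dendritic cell factor, had 2, 2 and 0 counts in NX JV101 and 21, 10 and 12 counts in sham saline. *Cd3g*, of the T cell receptor complex, had 1 count in each NX JV101 library and 9, 7 and 11 counts in sham saline. Sham saline replicate 2, the highest in lymphocyte genes, was also the highest in red cell transcripts: the erythroid markers summed to 84.3, 87.6 and 39.9 CPM in NX JV101 and 25.6, 718 and 262 CPM in sham saline, and overlapped. Macrophage markers had a median of 0.41, and −0.11 without NX JV101 replicate 2. *Timd4*, a receptor of resident macrophages, had 1.84, 3.68 and 2.92 CPM in NX JV101 and 0.972, 1.33 and 1.36 CPM in sham saline (1.21, SE 0.44).

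Interferon-stimulated genes leaned higher with little separation. Of 37 genes of the type I response 35 were positive, and the median was 0.45 (between 0.19 and 1.22 as each library was left out). Yet 1 was higher at an unadjusted p under 0.05 (2.76% of all genes). Without overlap 2 were higher (10.2% of all genes) and 1 was lower (8.23% of all genes). These shares were no larger than the background. *Ifi27l2a*, an interferon-inducible gene, had 11.8, 21.0 and 15.7 CPM in NX JV101 and 4.22, 4.33 and 7.40 CPM in sham saline (1.60, SE 0.55). Without sham saline replicate 1, 14 of the 37 type I genes were higher at an unadjusted p under 0.05 (428 of 14836 genes tested). Genes of the interferon-gamma response and MHC split, with 16 of 37 positive and 21 negative. Their median was −0.03, and ran from −0.59 to 1.00 without any 1 library. An unadjusted p under 0.05 was reached by 0, and 1 was lower without overlap (8.23% of all genes). That gene, *Ciita*, the master activator of MHC class II, had 0.851, 2.97 and 1.40 CPM in NX JV101 and 3.04, 4.68 and 4.12 CPM in sham saline (−1.17, SE 0.53). *H2-Eb1*, an MHC class II chain, overlapped (−0.45, SE 0.58).

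Shelterin, the protein cap of telomeres, differed little relative to its errors. Of its 7 genes 6 were positive with a median of 0.08. *Tinf2*, which joins the double-strand and single-strand binding members, had 7.32, 8.13 and 7.55 CPM in NX JV101 and 6.29, 6.64 and 5.76 CPM in sham saline (0.30, SE 0.16), without overlap. The other 6 overlapped. *Terf1*, which binds double-stranded telomere DNA, had 2.21, 4.36 and 3.39 CPM in NX JV101 and 3.17, 2.25 and 1.86 CPM in sham saline (0.45, SE 0.45). Its relative *Terf2* had 8.34, 9.85 and 9.55 CPM in NX JV101 and 8.55, 10.6 and 7.03 CPM in sham saline (0.09, SE 0.21). *Terf2ip* and *Acd* differed by 0.06 (SE 0.12) and 0.01 (SE 0.21), and the single-strand binders *Pot1a* and *Pot1b* by 0.08 (SE 0.22) and −0.17 (SE 0.50). *Terf1* and *Pot1b*, at 1.86 to 5.31 CPM, were measured with the widest errors of the 7.

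Of 22 p53 targets 16 were positive with a median of 0.18, and 1 was higher at an unadjusted p under 0.05 (2.76% of all genes). Without overlap 4 were higher (10.2% of all genes) and 1 was lower (8.23% of all genes). *Bax*, which permeabilises mitochondria in apoptosis, had 10.3, 12.4 and 10.4 CPM in NX JV101 and 7.45, 6.93 and 7.15 CPM in sham saline (0.62, SE 0.23). *Cdkn1a*, the p21 inhibitor of the cell cycle, had 18.2, 96.9 and 56.8 CPM in NX JV101 and 43.1, 69.9 and 62.3 CPM in sham saline (−0.03, SE 0.67), a wide overlap. *Cxcl1*, a neutrophil-attracting chemokine of the senescence list, had 14.8, 20.3 and 13.0 CPM in NX JV101 and 2.25, 6.64 and 4.77 CPM in sham saline (1.84, SE 0.70). The 20 senescence genes had a median of 0.23, which was −0.046 without NX JV101 replicate 2 and −0.21 with the fibroblast score as a covariate, and the 21 genes of the DNA damage response −0.03 (0.10 and 0.20 on FPKM). *Stn1*, of the complex that completes telomere replication, had 9.78, 8.41 and 8.58 CPM in NX JV101 and 6.37, 5.77 and 7.74 CPM in sham saline (0.43, SE 0.22).

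*Zkscan3*, a zinc finger repressor of autophagy genes, had the smallest p of all, at 16.0, 16.2 and 19.0 CPM in NX JV101 and 27.0, 33.5 and 29.2 CPM in sham saline (−0.81, SE 0.14; edgeR adjusted p = 0.780). Against the same sham saline libraries it was −0.58 for NX saline and −0.53 for sham JV101. It was the lowest of the 27 genes of autophagy and lysosome, which had a median of 0.00, with 14 positive. *Aasdh* had 6.16, 4.41 and 4.94 CPM in NX JV101 and 11.002, 9.93 and 10.3 CPM in sham saline (−1.01, SE 0.22). *Slc20a1*, the sodium-phosphate cotransporter PiT-1, from the list of phosphate and FGF23 genes, had 14.4, 16.4 and 16.0 CPM in NX JV101 and 20.7, 25.8 and 23.6 CPM in sham saline (−0.58, SE 0.14). On the higher side *Prdx4*, the peroxiredoxin of the endoplasmic reticulum, had 10.8, 11.2 and 11.1 CPM in NX JV101 and 5.71, 5.14 and 7.21 CPM in sham saline (0.87, SE 0.24). *Sertad1*, a regulator of cell cycle transcription, had 8.21, 10.1 and 10.8 CPM in NX JV101 and 5.45, 3.41 and 4.06 CPM in sham saline (1.16, SE 0.28). *Mknk1*, a kinase of the translation factor eIF4E, had 15.7, 16.4 and 16.2 CPM in NX JV101 and 12.3, 10.6 and 11.3 CPM in sham saline (0.50, SE 0.14). All 6 stood apart between the groups, as had 8.23% of all genes in the lower and 10.2% in the higher direction. They were taken for their small p, over all genes or within their list.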

How the data were processed

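Per the labels' protocols, RNA was purified with an RNeasy kit, and polyA libraries were made from 1.3 µg (VAHTS Universal V6). Processing used HISAT2, HTSeq and fastp with the build GRCm39, per the submitters' processing notes; no source used here gives their versions, the annotation or the strand setting. The authors deposited gene counts and FPKM of 12 libraries as separate tables, and the counts cover 22794 genes. Columns were matched to samples by the column names in the labels. The deposited counts were used for every main result. The deposited FPKM are counts per length and library total, mitochondrially encoded counts included (largest relative difference 9.0e-09 over 9643 genes with at least 50 counts in each library), and served only as an alternative.

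The filter was filterByExpr of edgeR (minimum count 10, minimum total 15), and 14412 genes passed it. Counts were scaled by TMM and fitted with edgeR's quasi-likelihood model over all 12 libraries with 4 groups, and the contrast was tested with a 2-sided F test adjusted by Benjamini-Hochberg over all genes. Standard errors were derived from F and the log2 fold change. Tools were edgeR 4.0.16, DESeq2 1.42.0 and limma 3.58.1 in R 4.3.3. The labels do not say that replicates came from separate animals, so the p-values reflect no more than how these samples varied, which may be technical; replicates differed well beyond counting noise. In simulated counts of this comparison (14154 genes, 200 changed) 31% of genes changed 2-fold and 79% of those changed 4-fold were recovered, with 4 false calls.

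Gene lists were described by counts and medians beside those of all genes, with no set test. The members of the lists, the tests and the rule for named genes were chosen with earlier results of these data known. The rule took 12 genes per direction with the smallest p at 1 CPM or more, up to 4 genes of each list with the smallest p, the 7 shelterin genes and a set of standard heart, clock and matrix genes; a few genes that it takes are not reported here. A list's score is the mean over its members of log2(CPM + 0.5) relative to the gene's mean over 12 libraries. Promoter windows came from RefSeq (GRCm38.p6) and were matched by symbol; since the data are on GRCm39, coordinates are those of GRCm38.p6 only and 96.9% of the table's symbols were found in its gene table. Alternatives were RLE factors, other filters, only the 6 libraries, a replicate block, counts without mitochondrially encoded genes, DESeq2, limma on log2 FPKM, leaving out each library, and a pair of covariates added after the data were seen.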

Additional observations from a re-analysis of the deposited data

How the results depend on the processing

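No setting of edgeR or limma called a gene at an adjusted p of 0.05; DESeq2 called 8. Genes at an unadjusted p under 0.05 numbered 538 with a filter of 5 CPM in 3 libraries, 1738 with only the 6 libraries (60.4% higher, against 44.5%), 1881 with the clock phase covariate (61.1% higher), 709 and 698 with limma on FPKM (87.3% and 87.5% higher), and 521 to 780 without 1 library. The replicate number as a block gave 649 such genes and 0 calls; same-numbered libraries deviated with r = 0.15, 0.31 and −0.53, so the numbers do not pair them. Of 1651 values of the 98 named genes under 17 alternatives, 1590 kept their direction. The 61 reversed values belong to 20 genes with overlapping groups, and the cause was not tested. With the block, *Hspa1a* was at 0.35 and *Hspa1b* at 0.11. On FPKM with pseudocounts of 1 and 0.1, *Hspa1a* was at 0.63 and 0.70, *Hspa1b* 0.61 and 0.76, *Cd36* 0.29 and 0.29, *Myh7* 0.19 and 0.22, *Pot1b* 0.083 and 0.18, and *Cdkn1a* 0.016 with 1. *Acd* was at −0.021 with RLE, −0.012 without mitochondrially encoded genes and −0.010 with DESeq2. With the clock covariate *Hspa1a* was at 0.55, *Hspa1b* 0.58, *Cd36* 0.11, *Nppa* −0.35, *Dbp* −0.31, *Per3* −0.26, *Nr1d1* −0.24, *Per2* −0.012, *H2-Eb1* 0.37, *Pot1a* −0.043, *Pot1b* 0.38 and *Cdkn1a* 0.83. With the fibroblast covariate *Cpt1a* was at −0.000618, *Myh7* 0.46, *Col1a1* −0.23, *Col3a1* −0.46, *Terf1* −0.080 and *Acd* −0.14. Without 1 library the ranges were −0.68 to 0.27 for *Hspa1a*, −0.084 to 0.11 for *Cd36*, −0.044 to 0.25 for *Cpt1a*, −0.17 to 0.39 for *Nppb*, −0.53 to 0.83 for *Nppa*, −0.40 to 0.32 for *Myh7*, −0.32 to 0.60 for *Col3a1*, −0.12 to 0.39 for *Nr1d1*, −0.028 to 0.57 for *Per2*, −0.047 to 0.26 for *Terf2*, −0.12 to 0.15 for *Acd*, −0.087 to 0.21 for *Pot1a*, −0.41 to 0.40 for *Pot1b* and −0.64 to 0.40 for *Cdkn1a*. The medians of mitochondrially encoded genes without those genes and of lymphocyte genes at 5 CPM had no member left. Sham saline replicate 2, with the fewest nuclear counts, limits the precision of low genes.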

Other observations

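Cytosolic ribosomal protein genes leaned higher in NX JV101, with 27 of 28 positive, a median of 0.21 and 27 of 28 highest in NX JV101 of the 4 groups (31.4% of all genes), but 1 of them was higher at an unadjusted p under 0.05 (2.76% of all genes). That median was 0.12 without NX JV101 replicate 2, 0.090 without sham saline replicate 1 and 0.069 with the fibroblast score as a covariate. *Rpl3*, a protein of the large subunit, had 117, 160 and 138 CPM in NX JV101 and 78.7, 91.2 and 102 CPM in sham saline (0.61, SE 0.23). TGF-β signalling genes had a median of 0.38, with 14 of 19 positive and 7 higher without overlap (10.2% of all genes). It was 0.10 with the fibroblast score as a covariate. The 13 mitochondrially encoded genes were all negative with a median of −0.62, which was 0.16 without sham saline replicate 2, the library with the highest share of such counts.

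Of 19 tested genes of adrenergic and renin-angiotensin signalling 8 were positive and 11 negative, with a median of −0.10. Groups did not overlap in 2 that were higher and 2 that were lower (10.2% and 8.23% of all genes). Among them *Adra1b*, an α1-adrenergic receptor, had 16.3, 12.3 and 15.3 CPM in NX JV101 and 23.6, 19.1 and 22.6 CPM in sham saline (−0.57, SE 0.27). *Dbh*, which makes noradrenaline and is from the list of Schwann cell and neuron markers, had 0.817, 0.518 and 0.548 CPM in NX JV101 and 1.51, 1.04 and 1.52 CPM in sham saline (−1.12, SE 0.43). *Nr4a3*, an immediate early nuclear receptor, had 5.45, 12.2 and 12.3 CPM in NX JV101 and 17.9, 24.4 and 24.0 CPM in sham saline (−1.14, SE 0.36), while 18 of the 24 immediate early genes were positive with a median of 0.25 (−0.073 with the fibroblast score as a covariate). *Pfkl*, a phosphofructokinase, had 74.6, 71.4 and 62.9 CPM in NX JV101 and 92.8, 85.8 and 89.9 CPM in sham saline (−0.36, SE 0.15). All 4 had groups that did not overlap, as had 8.23% of all genes in the lower direction. They were taken for their small p within their lists.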
